A study of Mus musculus with 19 samples.

Results

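The genes described here encode the proteins of the cytosolic ribosome, the particle that translates all messenger RNA outside mitochondria. They were chosen by name: protein-coding genes whose mouse symbol begins with Rpl, for the large 60S subunit, or with Rps, for the small 40S subunit, followed by a digit, an a or a p, leaving out the kinase family Rps6k and Rps19bp1. Of 91 such genes, 84 reached 5 counts in 50% or more of the libraries, among 19297 genes that passed that filter. They comprise 51 genes of the large and 33 of the small subunit. The 7 genes below the filter were Rpl10l, Rpl36-ps4, Rpl36a-ps1, Rpl39l, Rpl9-ps1, Rpl9-ps6 and Rps12-ps3.

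Polyadenylated RNA of the microdissected CA1 region of the hippocampus was sequenced in 19 libraries of mice aged 7 months. Wild-type littermates given a control oligonucleotide formed the WT control group (n = 6). APPPS1-21 mice with the same control formed the APP control group (n = 6), and APPPS1-21 mice given the anti-miR-mix formed the APP anti-miR-mix group (n = 7). APPPS1-21 mice carry mutant human APP under Thy1 regulatory sequence, which is active in neurons, and deposit amyloid. Oligonucleotides were delivered to the dorsal hippocampus in lipid nanoparticles in every group. The anti-miR-mix inhibits 3 microRNAs. The titles of the WT control libraries also name the anti-miR-mix beside the word control, and the reading of the study was followed. The sex of single animals was not given in the sources used here, and nothing beyond the sample numbers states that each library came from a separate animal.

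Each ribosome holds a single copy of nearly every ribosomal protein, so cells make them in balanced amounts. Their mRNAs begin with a run of pyrimidines, the 5′ terminal oligopyrimidine (TOP) motif, through which the mTOR kinase and the RNA-binding protein LARP1 set their translation and stability together. The stalk proteins Rplp0, Rplp1 and Rplp2 recruit elongation factors, and Rps6 is phosphorylated downstream of mTOR and serves as a readout of its activity. In neurons these mRNAs are found in cell bodies and in processes, where local protein synthesis takes place. Many ribosomal protein genes also host small nucleolar RNAs in their introns, and they have left numerous processed pseudogenes in the genome.

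RefSeq start sites (GRCm38.p6, the mm10 build) were found for 63 of the 84 genes. A C followed by 4 more pyrimidines stood exactly at an annotated start in 14 of the 63 (22.2%), against 3.01% of 27025 genes with an entry. A C followed by 7 more pyrimidines lay within 25 bases of the start in 50.8% of these members and in 17.6% of all genes. The motif CCGGAAG, on either strand of the 300-base entry (250 bases before to 50 after the start), occurred in 39.7% of these members and 9.93% of all genes. Windows from 10 bases before to 20 bases from the start are shown for 6 members chosen among those with such a run at an annotated start, with the uninterrupted pyrimidine run from the annotated start in capitals:
Rpl35a, chr16:33056472-33056501, + strand: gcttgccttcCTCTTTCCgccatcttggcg
Rpl38, chr11:114668570-114668599, + strand: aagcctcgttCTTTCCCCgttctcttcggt
Rplp2, chr7:141447641-141447670, + strand: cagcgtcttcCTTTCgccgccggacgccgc
Rps6, chr4:86857348-86857377, − strand: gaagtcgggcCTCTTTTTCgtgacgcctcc
Rpl15, chr14:18270967-18270996, − strand: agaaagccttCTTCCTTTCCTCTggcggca
Rps15a, chr7:118116128-118116157, − strand: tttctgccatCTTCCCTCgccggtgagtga
Of the 14 members with such a run, 3 rose in APP control relative to wild type (21.4%, beside 18 of all 84 members, also 21.4%), namely Rpl35a, Rpl38 and Rplp2. The other 11 were not called, and Rps6, Rpl15 and Rps15a are shown as 3 of them.

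Across the libraries, total counts ranged from 19362343 to 37018917, and the 84 genes together took between 0.264% and 0.370% of them. The share was 0.294% ± 0.0212 (SD, n = 6) in WT control, 0.341% ± 0.0253 (n = 6) in APP control and 0.336% ± 0.0198 (n = 7) in APP anti-miR-mix. The WT control libraries ran from 0.264% to 0.327%, the APP control libraries from 0.298% to 0.370% and the APP anti-miR-mix libraries from 0.303% to 0.367%. The groups therefore overlapped. WT control replicates 1 (0.327%), 2 and 3 (0.301% each) lay above the lowest APP control library, replicate 6 (0.298%). WT control replicate 1 also lay above APP anti-miR-mix replicates 5 (0.322%) and 7 (0.303%). One APP control library, replicate 5, had amyloid-responsive glial genes at the level of WT control, with values given below. Reads from bulk tissue cannot tell a change in the number of cells of a type from a change in RNA per cell.

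**Figure D1:**
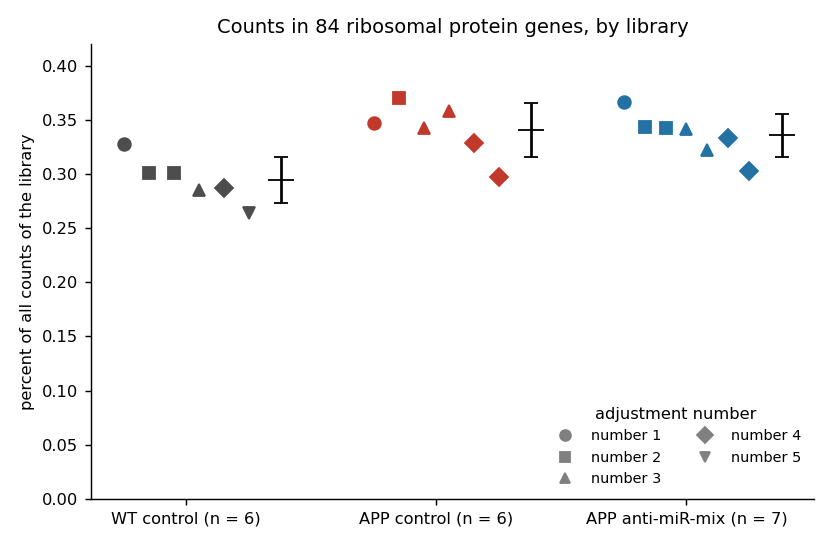
Percent of each library's counts (vertical axis, from 0) that fell in the 84 ribosomal protein genes, with 1 point per library, grouped as WT control, APP control and APP anti-miR-mix; bars give the mean ± SD, and the marker gives the adjustment number of the library, a whole number from 1 to 5. Within numbers 1 to 4 each APP library lay above the WT control libraries.

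The first question was whether amyloid-bearing mice differ from wild-type littermates. Ribosomal protein genes were higher in APP control. Of the 84 genes, 18 rose (DESeq2, Benjamini-Hochberg adjusted p under 0.05) and none fell, that is 21.4% of them against 3.66% of all genes tested that were called higher. The log2 fold change was above 0 for 78 of the 84 genes and for 45.6% of all genes. Its median was 0.15 over the members, an increase of 10.9%, and -0.01 over all genes. The changes were small for each gene, with a lower and upper quartile of 0.09 and 0.21 on the log2 scale. The 2 genes with the lowest counts, Rpl10-ps3 and Rps27rt, received no adjusted p. The count of 18 fell to 9 without APP control replicate 4 or without WT control replicate 6, and was 32 without APP control replicate 6, where 3.0%, 2.78% and 4.47% of all genes were called higher. Without APP control replicate 5 it was 20, beside 3.84% of all genes.

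Both subunits were represented, with 7 of 33 small-subunit genes called (median log2 fold change 0.18) and 11 of 51 large-subunit genes (median 0.13). All 26 genes with a mean raw count of 1000 or more had a log2 fold change above 0, with a median of 0.20, and 12 of them were called. Of the 17 genes with a mean count under 100, none was called, 13 had a value above 0, and their standard errors were wider (median 0.16 against 0.07 in the genes with 1000 counts or more). The median log2 fold change of these 17 genes was 0.08.

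**Figure D2:**
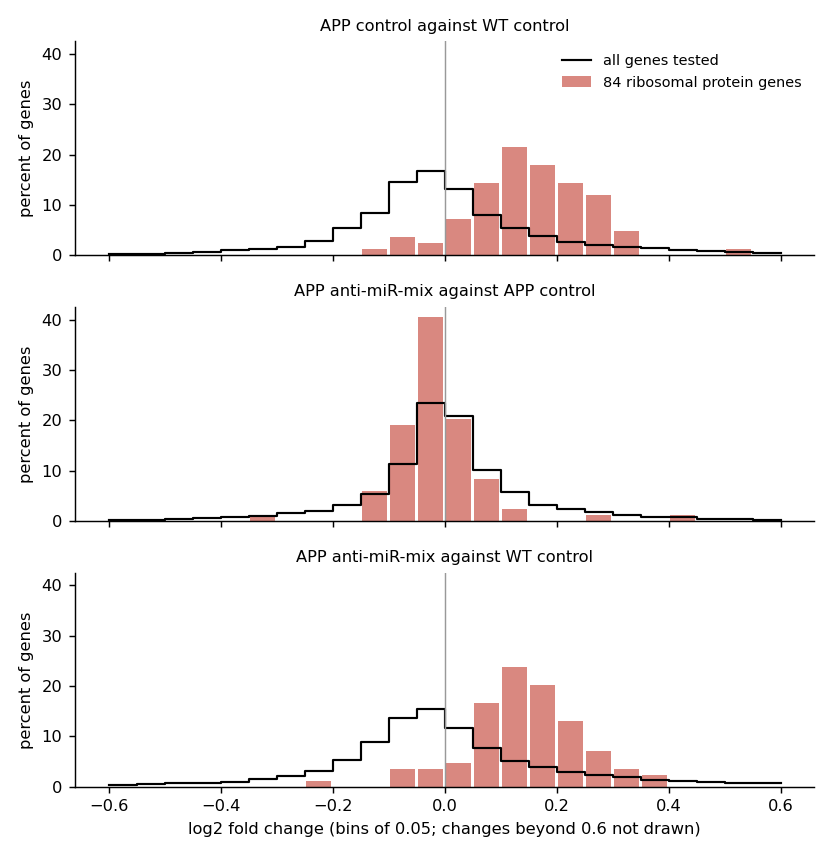
Distribution of log2 fold changes (horizontal axis, bins of 0.05) in the 3 comparisons, as percent of genes (vertical axis), with bars for the 84 ribosomal protein genes and a line for all 19297 genes tested. The members sit to the right of all genes in both comparisons with WT control, with medians of 0.15 and 0.14, and around 0 between the APP groups, with a median of -0.02.

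Among small-subunit genes, Rps4x, the X-linked gene of RPS4 (X:102184941-102189394, GRCm38), rose. Its normalized read count, the raw count divided by DESeq2's size factor, had a lowest, median and highest value of 705, 799 and 860 in WT control, 821, 1039 and 1066 in APP control, and 863, 973 and 1110 in APP anti-miR-mix. Of the APP control libraries, 5 of 6 lay above every WT control library, and replicate 6 did not. The log2 fold change in APP control was 0.33 ± 0.07 (SE, adjusted p = 0.000587 by DESeq2), an increase of 25.3%.

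Rps25 (9:44407139-44410427), a protein of the 40S head known for its part in translation started at internal ribosome entry sites, showed the same order. It ran from 692 over a median of 787 to 923 in WT control, from 922 over 993 to 1015 in APP control, and from 839 over 953 to 1018 in APP anti-miR-mix. Its 5 highest APP control libraries lay above all of WT control, in which replicate 1 was the highest. The log2 fold change was 0.30 ± 0.06 (adjusted p = 0.000193 by DESeq2), and 206 and 462 of its exonic bases overlap Ccdc84 and Trappc4 on the other strand.

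Rps24 (14:24487125-24496959), mutated in some patients with Diamond-Blackfan anaemia, was 1 of 3 genes in which no APP control library overlapped WT control (3.57% of the members, against 1.2% of all genes). It ran from 1194 to 1353 with a median of 1284 in WT control and from 1388 to 1644 with a median of 1504 in APP control. Its log2 fold change was 0.24 ± 0.06 (adjusted p = 0.00207 by DESeq2). The other two were Rps3a1, a 40S protein that contacts initiation factors, at 0.27 ± 0.07 (adjusted p = 0.00182 by DESeq2), and Rpl7, a 60S protein, at 0.19 ± 0.05 (adjusted p = 0.0165 by DESeq2, 0.0555 by edgeR).

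Rps9 and Rps3, which line the channel where mRNA enters the small subunit, were among the most abundant called genes. Rps9 had a median of 2786 in WT control and 3533 in APP control, a log2 fold change of 0.30 ± 0.08 (adjusted p = 0.00368 by DESeq2). Rps3 had medians of 6652 and 7970, a log2 fold change of 0.21 ± 0.07 (adjusted p = 0.0443 by DESeq2). Rps3 did not pass with edgeR (adjusted p = 0.0962). In each of these, 4 of 6 APP control libraries lay above all WT control libraries. Rps20, another 40S protein, rose by 0.19 ± 0.06 on the log2 scale (adjusted p = 0.0172 by DESeq2).

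Of the large-subunit genes, Rpl32 (6:115805505-115808747) had the lowest adjusted p. It ran from 1483 over a median of 1671 to 1801 in WT control, from 1762 over 2044 to 2225 in APP control, and from 1751 over 2007 to 2077 in APP anti-miR-mix. In APP control 5 of 6 libraries and in APP anti-miR-mix 6 of 7 libraries lay above every WT control library. The log2 fold change in APP control was 0.29 ± 0.06 (adjusted p = 0.000157 by DESeq2), an increase of 22.5%. Rpl32 shares 53 exonic bases with Cand2 on the other strand.

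Rpl35a (16:33056453-33060189), whose start site shown above carries an 8-base pyrimidine run, went from 586 to 691 in WT control, with a median of 621, and from 684 to 814 in APP control, with a median of 768. Its log2 fold change was 0.28 ± 0.06 (adjusted p = 0.000238 by DESeq2). Rpl23, which besides its place in the 60S subunit binds the p53 regulator MDM2, rose by 0.22 ± 0.06 (adjusted p = 0.013 by DESeq2), and Rpl34 by 0.20 ± 0.06 (adjusted p = 0.013 by DESeq2). Rpl22 rose by 0.18 ± 0.05 (adjusted p = 0.0241 by DESeq2) and Rpl41, the smallest ribosomal protein, by 0.20 ± 0.06 (adjusted p = 0.0353 by DESeq2). With edgeR neither passed (adjusted p = 0.0621 for Rpl22 and 0.0825 for Rpl41).

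Rpl38, known for its part in the translation of Hox mRNAs, had a wide spread. It ran from 366 to 598 in WT control and from 537 to 624.7 in APP control, so that the highest WT control library, replicate 1, exceeded 5 of the 6 APP control libraries. The log2 fold change was 0.32 ± 0.10 (adjusted p = 0.0233 by DESeq2, 0.0592 by edgeR). The highest value of any member, 0.52 ± 0.23 for Rpl24, a 60S protein at the bridge between the subunits, did not pass the test (adjusted p = 0.242 by DESeq2) and rested on a mean raw count of 20.4.

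All 3 stalk genes rose in APP control with DESeq2, and Rplp0 did not pass with edgeR (adjusted p = 0.0924). Rplp1, which had the highest level per kilobase of any member, ran from 3830 over 4012 to 4431 in WT control and from 4267 over 4882 to 5353 in APP control (log2 fold change 0.26 ± 0.07, adjusted p = 0.00366 by DESeq2). Rplp2 had medians of 999 and 1217 (0.25 ± 0.07, adjusted p = 0.0113 by DESeq2). Rplp0 had medians of 2132 and 2632 (0.28 ± 0.09, adjusted p = 0.0462 by DESeq2). In all of these, APP control replicate 6 was the lowest library of its group, and WT control replicate 1 the highest of its own.

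**Figure D3:**
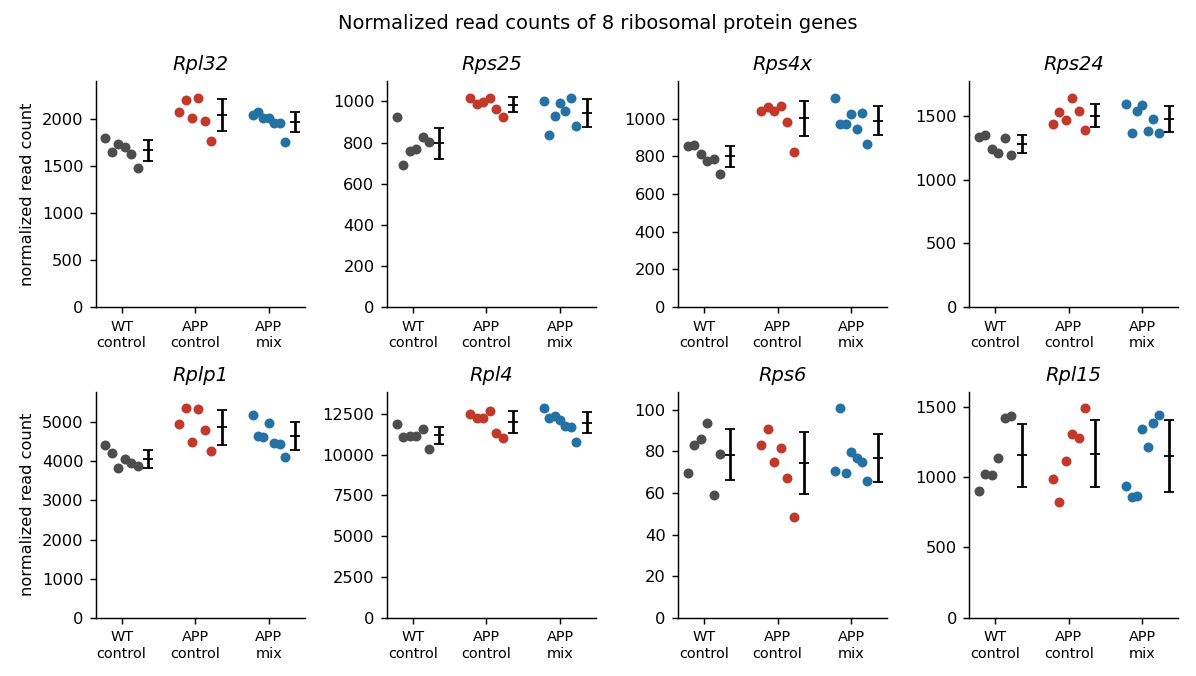
Normalized read counts (vertical axes, from 0) of 8 ribosomal protein genes in the 6 WT control, 6 APP control and 7 APP anti-miR-mix libraries, in replicate order, with bars for the mean ± SD. Rpl32, Rps25, Rps4x, Rps24 and Rplp1 are higher in both APP groups, Rpl4 and Rps6 did not pass the test, and Rpl15 spreads over the same range in all 3 groups.

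Members that did not pass the test included abundant ones. Rpl4, a 60S protein of the exit tunnel and the gene with the most counts, ran from 10332 to 11870 in WT control and from 11028 to 12663 in APP control (log2 fold change 0.10 ± 0.05, adjusted p = 0.297 by DESeq2). Rps6, the mTOR readout at the protein level, had a median of 81.0 normalized counts in WT control, with a range of 59.2 to 93.6, and of 78.4 in APP control, with a range of 48.6 to 91.0 (log2 fold change -0.08, adjusted p = 0.932 by DESeq2), on a mean raw count of 77.0. Values below 0 were also seen for Rpl10-ps3, Rpl19, Rpl28, Rps13 and Rps23, between -0.11 and -0.00, and none of these passed the test. These genes are named because of their sign, after their values were seen.

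The second question was whether inhibition of the microRNAs shifted these genes in APPPS1-21 mice. No ribosomal protein gene was called when the APP anti-miR-mix group was set against APP control, as for all genes (0%). None of the 84 reached an unadjusted p under 0.05 with DESeq2 or with edgeR's quasi-likelihood test, against 2.86% and 2.96% of all genes, and limma on the authors' table gave 1, against 4.55%. The lowest unadjusted p was 0.11 with DESeq2 (Rpl12), 0.0855 with edgeR (Rpl24) and 0.0449 with limma (Rpl12). The median log2 fold change was -0.02, with 28 genes above 0 and 56 below, beside a median of -0.00 over all genes. The direction depended on single libraries. With 1 library left out, the number above 0 ran from 18 (without APP control replicate 6) to 45 (without APP control replicate 2 or 4). It was 44 without APP anti-miR-mix replicate 7. For 67 genes with a mean count of at least 100, the 95% intervals of the log2 fold change reached from -0.33 at the lowest to 0.31 at the highest, and for 42 of the 84 genes the interval lay within 0.2 of 0.

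Genes with the smallest unadjusted p in this comparison were small in effect or in count. Rpl12, a stalk-base protein, had 181 ± 16.4 (SD, n = 6) normalized counts in APP control and 200 ± 20.7 (n = 7) in APP anti-miR-mix. Rpl24 had 24.4 ± 2.78 and 19.5 ± 3.65, Rpl38 had 570 ± 32.4 and 519 ± 53.1, and Rpl36 had 102 ± 13.5 and 91.9 ± 5.98. Rpl14, Rps15, Rpl35a and Rplp1 were lower in APP anti-miR-mix by 0.07 to 0.09 on the log2 scale. The groups overlapped in every member.

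The sequences of the inhibited microRNAs bear on this comparison, since a microRNA acts mainly through matches of its seed (bases 2 to 8, in capitals) in 3′ untranslated regions. The mature sequences from RefSeq (GRCm38.p6) are:
miR-181a-5p (Mir181a-1, chr1:137966468-137966490, and Mir181a-2, chr2:38852741-38852763): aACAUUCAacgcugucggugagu
miR-146a-5p (chr11:43374435-43374456): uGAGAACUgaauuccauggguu
miR-148a-3p (chr6:51269829-51269850): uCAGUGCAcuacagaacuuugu
The members have short 3′ untranslated regions, with a median of 67 bases in 1 annotated transcript per gene, against 874 in 15465 protein-coding genes tested. The complement of at least 1 of the 3 seeds was found in 6 of the 84 members (7.14%) and in 29.9% of these protein-coding genes. Among the genes with a region of at most 200 bases, the share was 3.27%, and among the 61 members of that length it was 3.28%, from Rpl10 and Rpl10-ps3. The 6 members were Rpl10, Rpl10-ps3, Rpl5, Rps15a, Rps20 and Rps24, of which Rps20 and Rps24 held a match to both miR-148a-3p and miR-181a-5p. In the annotated transcripts searched, the region had 4722 bases for Rps15a, 3167 for Rps20, 1173 for Rps24 and 1009 for Rpl5. It had 68 bases for Rpl10 and 96 for Rpl10-ps3. Whether the reads came from transcripts with these long regions was not tested. The 6 genes were then followed between the APP groups. Their log2 fold changes between the APP groups, positive where APP anti-miR-mix was higher, were 0.08 for Rpl10, 0.05 for Rpl5, 0.02 for Rps15a, -0.04 for Rps20 and -0.03 for Rps24. Rpl10-ps3 had 0.43 on a mean of 5.21 counts. None passed the test.

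APP anti-miR-mix was also compared with WT control, which shares its WT control libraries with the first comparison, so the 2 results are not independent. Again 18 of the 84 genes rose and none fell, that is 21.4%, against 5.59% of all genes tested that were called higher. The median log2 fold change was 0.14 over the members, beside -0.02 over all genes, and 77 of the 84 had a value above 0. No overlap between the groups was seen for 3 genes, Rps4x, Rps24 and Rplp2, which is 3.57% of the members against 2.52% of all genes and thus near the background. The count of 18 fell to 10 without WT control replicate 6, and to 10 without WT control replicate 5 and APP anti-miR-mix replicate 6, which held high counts of choroid plexus genes, beside 4.11% and 4.62% of all genes. With the replicate number as a block, 33 members were called, all higher, beside 6.36% of all genes. Replicate 7 exists only in APP anti-miR-mix, so in that fit it did not enter the group difference. Without this library and with no block, 24 members were called, beside 5.5% of all genes. Called with this block and not without it were the named genes Rpl12, Rpl22, Rpl4, Rpl41, Rpl8, Rps20, Rps21 and Rps27l, with adjusted p of 0.0175, 0.00953, 0.00365, 0.00449, 0.0143, 0.0197, 0.0394 and 0.039 by DESeq2.

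The values of the named genes stood side by side as follows. Rps4x was 0.31 ± 0.07 above WT control (adjusted p = 0.000545 by DESeq2), Rpl32 0.24 ± 0.06 (adjusted p = 0.00149 by DESeq2) and Rps25 0.24 ± 0.06 (adjusted p = 0.00233 by DESeq2). Rpl30, a 60S protein, was called here with 0.22 ± 0.06 (adjusted p = 0.0062 by DESeq2) and had 0.18 in APP control (adjusted p = 0.06). Rpl26, known to bind p53 mRNA, had 0.21 in APP anti-miR-mix (adjusted p = 0.0348 by DESeq2, 0.0627 by edgeR) and 0.22 in APP control (adjusted p = 0.0594). Rpl38 had 0.18 here (adjusted p = 0.241 by DESeq2), below its value in APP control. Of these genes, Rpl38 differed most between the 2 APP groups, by -0.14, which was not called (adjusted p = 1 by DESeq2).

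Microglial genes and genes of glia that respond to amyloid rose in APP control. Of 10 listed genes of glia that respond to amyloid, 10 rose in APP control, with a median log2 fold change of 1.82, and of 8 microglial genes 6 rose, with a median of 1.01. The mean log2 level of the microglial genes was 10.6 to 11.3 across WT control libraries, 11.2 to 12.3 across APP control and 11.6 to 12.3 across the anti-miR-mix libraries. APP control replicate 5 had the lowest microglial level of its group (11.2), and its level of the amyloid-responsive genes, 9.98, lay within the WT control range of 8.78 to 10.05, the next lowest being 10.55 in replicate 6. The member share was 0.329% in replicate 5 and 0.298% in replicate 6, the lowest of the group. None of the listed genes of CA1 neurons, dentate gyrus, CA3 (6 tested each), oligodendrocytes (7), choroid plexus (9) and blood (5) was called in APP control with DESeq2. Values above 0 were seen for 5 of 5 blood genes (median log2 fold change 0.81), 5 of 6 dentate gyrus genes (0.18), 4 of 6 CA3 genes (0.15), 3 of 7 oligodendrocyte genes (-0.01), 3 of 9 choroid plexus genes (-0.20) and none of 6 CA1 genes (-0.12). Of 6 endothelial genes 1 rose and all had values above 0 (median 0.24), and of 6 astrocyte genes 1 rose and 5 had values above 0 (median 0.21). Of 11 neuronal genes 2, Gad1 and Gad2, fell, the others having values below 0. Of these 11 neuronal genes 1 fell in APP anti-miR-mix against WT control, and 5 with the replicate block. The part of these cells in the ribosomal protein result was not tested. The mean log2 level of CA1 neuron markers was 11.81 ± 0.153 (SD, n = 6) in WT control and 11.69 ± 0.148 (n = 6) in APP control. The marker lists, like all lists used here, were chosen with earlier results of these data known.

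Few genes of the lists that act with the ribosome passed the test. Of 39 translation initiation factor genes, 1 fell in APP control, Eif4e2 (-0.13, adjusted p = 0.0321 by DESeq2), and none rose. Of 11 elongation and termination factor genes, 1 rose, Eef1b2, a guanine nucleotide exchange factor of the elongation factor eEF1A (0.18, adjusted p = 0.00839 by DESeq2). Of 33 genes of the mTOR pathway and TOP mRNA regulation 1 rose, where 3.66% of all genes were called higher, Castor1, an arginine sensor upstream of mTOR, from 75.9 ± 10.3 (SD, n = 6) to 120 ± 25.6 (n = 6) normalized counts (log2 fold change 0.66, adjusted p = 0.000197 by DESeq2). None of 39 ribosome biogenesis genes and none of 18 stress response genes was called in APP control at the adjusted threshold with DESeq2. The median log2 fold changes of these 5 lists lay between -0.04 and 0.01, beside 0.15 for the ribosomal protein genes.

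In APP anti-miR-mix against WT control, Eif4ebp1, an inhibitor of cap-dependent initiation and target of mTOR, rose from 63.6 ± 11.8 (SD, n = 6) to 93.9 ± 17.1 (n = 7) normalized counts (adjusted p = 0.0111 by DESeq2). Pabpc1, the cytoplasmic poly(A)-binding protein, whose mRNA is itself of the TOP class, rose by 0.20 (adjusted p = 0.0181 by DESeq2). Its value in APP control was 0.19 (adjusted p = 0.0628). Eif1b rose by 0.13 (adjusted p = 0.0448 by DESeq2) and Eif2b3, a subunit of the exchange factor eIF2B, fell by 0.18 (adjusted p = 0.0355 by DESeq2). Castor1 rose by 0.44 (adjusted p = 0.0198 by DESeq2). Of the 18 stress response genes 3 rose, in a comparison where 5.59% of all genes were called higher. Eif2ak2, the kinase PKR, rose by 0.58 (adjusted p = 0.0176 by DESeq2), and its value in APP control was 0.44 (adjusted p = 0.192). Atf5, a transcription factor of the stress response, rose by 0.31 (adjusted p = 0.0478 by DESeq2), and Trib3, a stress-induced pseudokinase, by 0.71 (adjusted p = 0.0484 by DESeq2), with 0.78 in APP control (adjusted p = 0.0505). With the replicate block 5 stress genes rose in this comparison, Atf4 (adjusted p = 0.0478) and Ddit3 (adjusted p = 0.0487) being added, and Eif2b3 was not called (adjusted p = 0.113 by DESeq2). Eef1b2 and Eef1a1, the elongation factor itself, rose with the block (adjusted p = 0.0108 and 0.00461 by DESeq2), and without it neither was called (adjusted p = 0.0654 and 0.098). Genes whose call changed with the block are named after their values were seen.

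Ribosomal proteins encoded under other symbols had values of the same size. Rack1, the scaffold protein of the 40S head, had a WT control mean of 5127 ± 372 normalized counts (SD, n = 6), beside 5808 ± 635 for APP control (n = 6) and 5889 ± 303 for APP anti-miR-mix (n = 7). It passed the test in APP anti-miR-mix (0.20, adjusted p = 0.0373 by DESeq2) and not in APP control (0.18, adjusted p = 0.136). Fau, which encodes a ribosomal protein fused to a ubiquitin-like protein, had 0.11 in APP control (adjusted p = 0.878 by DESeq2).

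Mitochondrial ribosomal protein genes, which encode the separate ribosome inside mitochondria, had few calls. None of 77 was called in APP control with DESeq2 and their median log2 fold change was -0.02. In APP anti-miR-mix against WT control 1 fell, Mrpl39 (-0.15, adjusted p = 0.0181 by DESeq2). Of 84 nuclear genes for oxidative phosphorylation none was called in APP control, with a median of -0.01. In APP anti-miR-mix against WT control 3 of the 84 fell, among them Ndufs1 (-0.15, adjusted p = 0.00693 by DESeq2) and Uqcrc2 (-0.15, adjusted p = 0.0281 by DESeq2), and Cox6b2 rose (0.45, adjusted p = 0.0267 by DESeq2). In that comparison 1727 of 19297 genes tested were called in either direction, and 5.59% of all genes were called higher. With the replicate block 4 of the 84 fell and none rose, beside 2202 of 19297 genes called in either direction. Uqcrc2 and Cox6b2 were then no longer called (adjusted p = 0.0764 and 0.0651 by DESeq2). Of 313 other genes with under 1000 exonic bases, 17 were called higher and 1 lower in APP control, where 3.66% of all genes were called higher. Their median was 0.04, with 198 above 0. The mean log2 level of these short genes was 6.12 ± 0.0762 (SD, n = 6) in WT control, 6.28 ± 0.0788 (n = 6) in APP control and 6.26 ± 0.0595 (n = 7) with the anti-miR-mix, beside 8.56 ± 0.0553, 8.71 ± 0.10 and 8.70 ± 0.0610 for the ribosomal protein genes. The part of length in the result was not tested.

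The members varied together between libraries of a group. After group means were removed from log2(normalized count + 1), 1 component held 45.5% of the variance of the members and 27.7% of that of all genes. The median correlation between 2 members over the 19 libraries was 0.32, beside -0.00 for all genes, and 0.69 among the 26 genes with a mean count of 1000 or more. All genes of a library share its depth and preparation, so these correlations describe the libraries and carry no test. Nuclear oxidative phosphorylation genes (54.6% on 1 component) and mitochondrial ribosomal protein genes (43.5%) also varied together.

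Rps3 followed the mean of the other members most closely (r = 0.96 over 19 libraries), then Rplp0, Rps9 and Rpl41 (0.94 each). Of the 84 genes, 51 had a correlation above 0.5 and 10 had one at or below 0. In WT control, replicate 1 was the highest library for 39 members and replicate 6 the lowest for 36. In APP control, replicate 2 was the highest for 32 and replicate 6 the lowest for 57, and in APP anti-miR-mix replicate 1 was the highest for 34 and replicate 7 the lowest for 41.

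**Figure D4:**
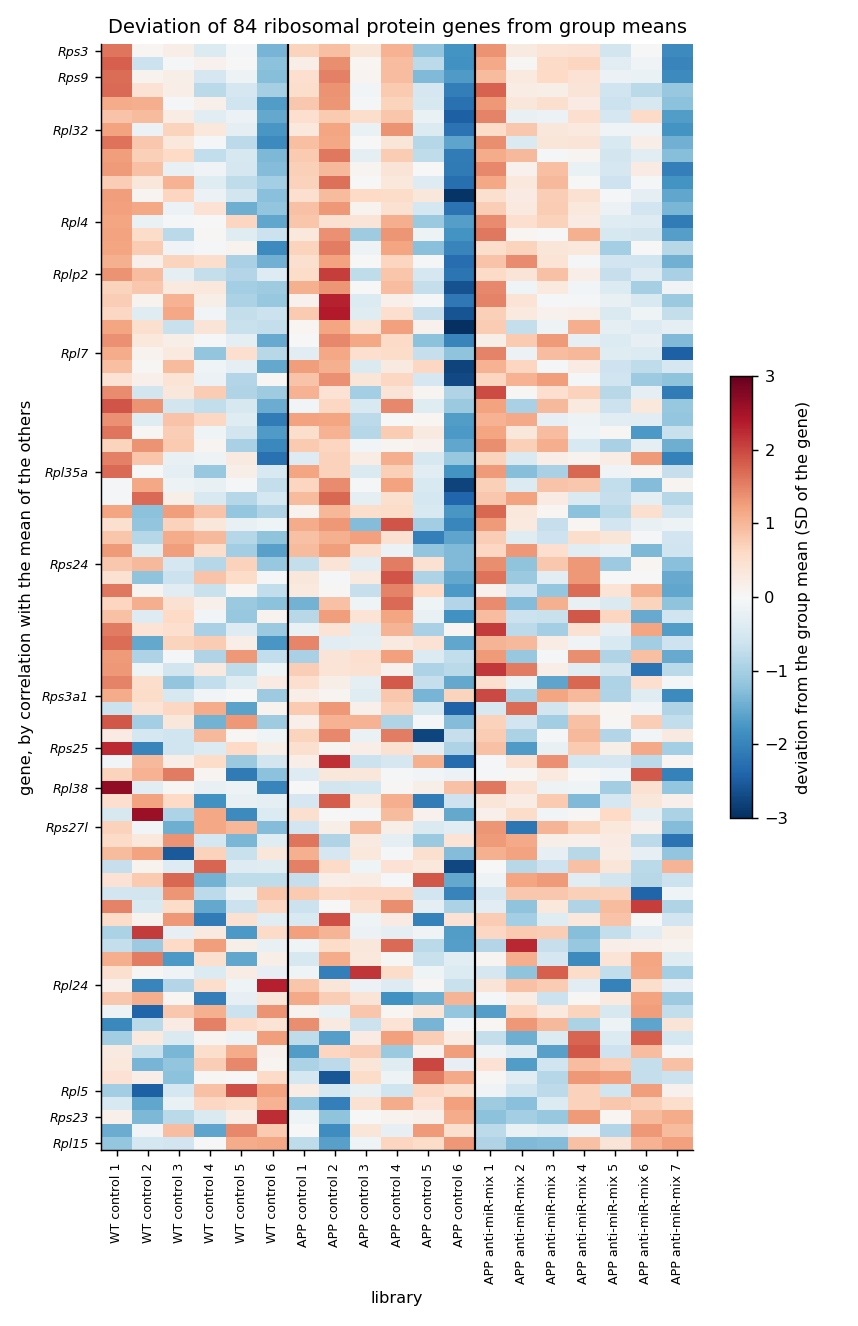
Deviation of each ribosomal protein gene (rows, some of them named, ordered by correlation with the mean of the other members) from its group mean in each library (columns, by group), in standard deviations of the gene, from blue (lower) to red (higher); values beyond 3 take the end colours. Most rows are red in WT control 1, APP control 2 and APP anti-miR-mix 1 and blue in WT control 6, APP control 6 and APP anti-miR-mix 7, and the lowest rows, down to Rpl15, show the opposite.

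Some members ran against the rest. Rpl15, a 60S protein, had the lowest correlation (-0.69), followed by Rps15a (-0.59), Rps23 (-0.57), Rpl22l1 (-0.57) and Rpl5 (-0.41). Rpl15 ran from 902 in WT control replicate 1 to 1434 in replicate 6, from 827 in APP control replicate 2 to 1488.5 in replicate 6, and from 860 in APP anti-miR-mix replicate 2 to 1439 in replicate 7. Its spread within a group was thus larger than any difference between the group means, which were 1156, 1167 and 1149. The mean raw counts of the 5 genes were 1184 for Rpl15, 2741 for Rps15a, 35.6 for Rps23, 567 for Rpl22l1 and 173 for Rpl5. Rpl15 shares 105 exonic bases with Nkiras1 and Rpl22l1 159 with Gm33051, both on the other strand.

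Values of 2 other kinds differed between these libraries. The authors' normalized table had been adjusted for a whole number from 1 to 5 per library whose meaning was not given. The share of counts in ribosomal protein genes was 0.327% in the WT control library with number 1, 0.301% in both with number 2, 0.285% and 0.287% with numbers 3 and 4, and 0.264% with number 5. Within a number, both APP groups lay above WT control in each of the 4 numbers that hold all groups. For number 2, for example, APP control had 0.370% and APP anti-miR-mix 0.343% in both libraries, and for number 4 APP control had 0.298% and 0.329% and APP anti-miR-mix 0.303% and 0.333%. With the number as a factor in the fit, 27 members were called for APP control and 26 for APP anti-miR-mix, each against WT control, beside 3.22% and 5.32% of all genes called higher in that fit. Counts in mitochondrially encoded genes took 2.84% to 4.87% of a library, with means of 3.70%, 3.85% and 4.01% in WT control, APP control and APP anti-miR-mix. APP control replicate 6 had 4.58% and replicate 2 had 2.86%. The part of these in the spread was not tested.

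Levels differed widely between members. Per kilobase of transcript, the median was 21.7 CPM (counts scaled to the library total), with a 10th percentile of 2.54 and a 90th of 143. Among the highest were Rplp1 (313 CPM per kilobase, mean of 19 libraries), Rpl8 (271), Rpl4 (263), Rps15 (256) and Rps21 (235). The lowest were Rpl10-ps3 (0.23), Rpl3l (0.327), Rps27rt (0.502), Rpl24 (1.03), Rpl23a (1.24) and Rps23 (1.28). The highest and the lowest of these levels were 1351-fold apart.

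These levels went with how much sequence a gene shares with others. For 1 transcript per gene, every 50-base window, the length of a read, was looked up in all other annotated transcripts. A window shared with another gene was found in 82 of the 84 members, and 51 had less than 50% of their windows to themselves. The median share of windows found nowhere else was 66.5% in the 26 genes with a mean count of 1000 or more and 19.3% in the 17 with a mean under 100. Rps3 had 97.0%, whereas Rps27 had 1.35%, Rpl35 4.91%, Rpl5 6.16%, Rpl9 6.68% and Rpl10 7.87%. Across the 84 genes Spearman's rho between this share and CPM per kilobase was 0.46, and when counts were divided by the unshared windows of 78 genes with at least 50 of them it was 0.00. The unshared windows enter both quantities of the second rho. It therefore cannot show whether shared sequence accounts for the levels. Genes are not independent replicates and no test was made. How reads that map to several places were treated was not given in the sources used here.

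**Figure D5:**
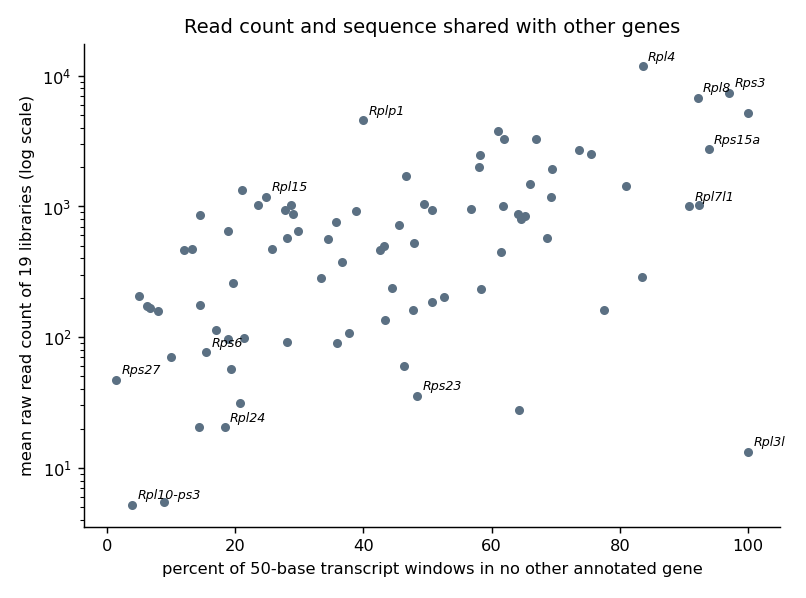
Mean raw read count over 19 libraries (vertical axis, log scale) of each of the 84 ribosomal protein genes against the percent of its 50-base transcript windows found in no other annotated gene (horizontal axis); 1 point is 1 gene. Genes such as Rpl4, Rps3 and Rpl8 lie at the upper right and Rps27 and Rpl10-ps3 at the lower left, while Rpl3l, with 100% of its windows unshared, had a mean of 13.3 counts.

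The group difference was present in genes of both kinds. The 33 genes with at least 50% of their windows unshared had a median log2 fold change of 0.20 in APP control, with 10 called, and the other 51 a median of 0.13, with 8 called. Pseudogenes named after these genes (270 rows, of which 19 passed the filter) had 358 to 734 counts in all per library, 16 of the 19 had a value above 0 in APP control, 15 in APP anti-miR-mix against WT control and 7 between the APP groups, and none was called in any of the 3 comparisons at the adjusted threshold with DESeq2.

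Paralogs stood below or above their parent genes, compared as CPM per kilobase of transcript. Rpl3l, the muscle form of Rpl3, had 0.327 and Rpl3 21.8, Rpl22l1 had 34.5 and Rpl22 180.9, and Rpl7l1, a relative of Rpl7, had 13.2 and Rpl7 50.2. Rpl36al had 24.2 and Rpl36a 12.4, but per 1000 unshared windows the order turned, with 72.7 CPM for Rpl36al and 94.8 for Rpl36a. Rps27l had 10.8, Rps27 4.68 and Rps27rt 0.502 CPM per kilobase, and no order is read from these, since 4 windows of Rps27 were unshared and per 1000 of them it stood at 403.6 against 15.5 for Rps27l. Rpl22 rose in APP control, whereas Rpl22l1 had a log2 fold change of 0.08 ± 0.12 (adjusted p = 0.899 by DESeq2), whose 95% interval holds the value of Rpl22. Rpl7l1 had 0.04 ± 0.05 (adjusted p = 0.863 by DESeq2). In APP anti-miR-mix Rps27l was 0.31 above WT control on the log2 scale (adjusted p = 0.055 by DESeq2, and 0.039 with the replicate block). The differences in fold change between paralog and parent were not tested.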

How the data were processed

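Per the labels, libraries were made with the TruSeq RNA Library Prep Kit v2 and sequenced as 50-base single-end reads. According to the submitters' processing notes the authors checked reads with FastQC 0.11.5, aligned them with STAR 2.5.2b to mm10 and counted them with featureCounts of Subread 1.5.1. The deposited values are raw counts per Ensembl gene (48709 genes, 14228 with no count). Annotation release, strand setting and treatment of multi-mapping reads are not given in the sources used here. Reads of genes that overlap on opposite strands therefore cannot be told apart. The authors also deposited a log2 table of 18825 genes, which matched log2(CPM + 1), scaled to the genes in the table, less a slope per gene times a whole number per library, with a largest residual of 4.03e-08. It served as an alternative.

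Symbols and positions came from GENCODE M21 (GRCm38), which matched 48349 identifiers. Genes reaching 5 counts in 50% or more of the 19 libraries were tested with DESeq2 1.42.0 (all 3 groups in 1 fit, Wald test, unshrunken fold changes, adjusted p under 0.05 over all genes), after the study's own choice of tool and filter. DESeq2 gave no adjusted p for 1136 genes with low counts in each comparison with WT control and for 13 between the APP groups. Alternatives were edgeR 4.0.16 (quasi-likelihood), limma 3.58.1 on the deposited table, other size factors and filters, the adjustment number or the replicate number in the fit, and leaving out libraries. Replicate numbers in the labels were taken to pair libraries of 2 groups where deviations from group means correlated above 0.1 in every same-numbered pair. This held for WT control with APP anti-miR-mix (6 of 6 pairs, 0.11 to 0.30), from the data and not from the labels, and not for the other comparisons. Replicates 1, 2 and 4 had adjustment numbers 1, 2 and 3 in every group. A pairing of animals and this shared number therefore cannot be told apart by these correlations. The block fit held all 3 groups, and APP anti-miR-mix replicate 7, the only library with that number, did not enter its group differences. Scripts were tested on simulated data. Within groups the lowest chi-square per gene of a pair of libraries was 4.6, above sampling noise, and no library was treated as a duplicate. Totals ran from 19362343 to 37018917 counts per library. All errors cover counting and the spread between these samples only, which may be technical.

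The members and all lists were chosen with earlier results of these data known. Named genes were members called in a comparison (at most 15 by adjusted p), the 8 with the smallest p in each, the 6 highest and 6 lowest per kilobase, paralogs with their parents, the 5 most and 5 least correlated with the other members, those with the most shared windows (found in transcripts, no genome being used), and Rplp0, Rplp1, Rplp2 and Rps6. Of the other lists up to 3 genes per comparison were named. Some of these genes are not reported here.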

Additional observations from a re-analysis of the deposited data

Results flagged for a closer look

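In 153 sets of values (named genes, shares and scores in each group of 6 or 7 libraries) a library stood apart from the rest of its group 10 times, by a gap that is large for the range of the group, where chance alone gives about 1 in 20, or 7.65. APP control replicate 6 was low in 2 of them: Rpl3 was 726.4 against 884.2 to 952.5 in the other libraries of the group, and Rps4x was 820.8 against 980.9 to 1065.6 normalized counts. Without this library 32 members were called in APP control in place of 18. APP anti-miR-mix replicate 7 was low for Rpl32 (1750.6, others 1954.6 to 2077.1) and for Rps9 (2843.0, others 3294.0 to 3634.6). WT control replicate 1 was high for Rpl38 (597.5, others 365.6 to 452.5) and for Rps20 (1005.6, others 886.6 to 926.4). Rps23 was 62.84 in WT control replicate 6 (others 24.18 to 37.01), Rpl9 was 144.5 in WT control replicate 3 (others 159.2 to 166.8) and Rps6 was 100.7 in APP anti-miR-mix replicate 2 (others 65.58 to 79.75). The summed raw counts of the pseudogene rows were 609 in APP control replicate 4, against 536 to 556 in the others.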

How the results depend on the processing

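In all alternatives every member called against WT control was called higher, and the median member log2 fold change in these comparisons stayed above 0. In APP control against WT control 18 members were called (3.66% of all genes called higher), 12 with edgeR (2.78%), 35 of 83 with limma on the deposited table (4.8%), and between 9 and 32 when 1 library was left out (9 without APP control replicate 4 or without WT control replicate 6, 32 without APP control replicate 6, where all genes gave 3.0%, 2.78% and 4.47%). In APP anti-miR-mix against WT control 18 were called (5.59%), 12 with edgeR (4.57%), 37 of 83 with limma on the deposited table (7.71%), 10 (4.62%) without WT control replicate 5 and APP anti-miR-mix replicate 6, the libraries with high choroid plexus genes (Ttr 1443 and 1084 normalized counts, 22.7 to 162 in the others), and between 10 and 24 with 1 library left out (10 without WT control replicate 6, 4.11%). Without the same 2 libraries 13 were called in APP control (3.4%). With total counts as size factors the median of all genes in APP control moved from -0.01 to 0.02, and 21 and 25 members were called (4.19% and 6.41%). The cause of these differences was not tested. The shared spread of members between libraries, their share of variance on 1 component, was 45.5%, 49.6% with log2(CPM + 1) from total counts, 34.3% in the deposited table, 70.3% for members with a mean of at least 1000 counts, 47.4% without the 2 libraries, and 41.4% to 47.2% with 1 library left out.

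Same-numbered libraries met the condition for pairing only for WT control with APP anti-miR-mix. For the other two comparisons the numbers are only shared, with correlations from -0.06 to 0.37 (APP control with WT control) and from -0.01 to 0.49 (between the APP groups), and 6 of 19 libraries correlated best with their own number. With the replicate block 32 members were called for APP control and 33 for APP anti-miR-mix, each against WT control (4.16% and 6.36% of all genes), and none between the APP groups, where the median moved from -0.02 to 0.00. APP anti-miR-mix replicate 7, which has no same-numbered library, did not enter the group differences of that fit. Leaving it out with no block gave 21 members for APP control (3.74%) and 24 for APP anti-miR-mix (5.5%). The median between the APP groups was then also 0.00. The part of this library in the block result was not tested. Of the named genes, Rpl32, Rps25, Rps4x, Rps24, Rps3a1, Rpl35a and Rps9 were called in all 30 fits of both comparisons with WT control. Rplp0 was called in 13 and 16 of 30, Rpl38 in 21 and 1, and Rps3 in 13 and 18.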
